A study of Mus musculus with 8 samples.

Results

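The 9 genes described here encode the liver X receptors (LXR), their retinoid X receptor (RXR) partners, and nuclear receptor corepressors and coactivators. They were taken by symbol, with no threshold on a measured value: Nr1h2, Nr1h3, Rxra, Rxrb, Rxrg, Ncor1, Ncoa1, Ncoa2 and Ncoa3, which are 9 of the 41730 gene rows of the table. All 9 symbols have a row. Messenger RNA was counted by sequencing of transcript 3' ends in mouse CD8+ T cells that had been purified as naive cells with a magnetic kit. The cells were cultured for 24 h with 2 µM RGX-104, a synthetic LXR agonist (4 libraries, replicates 5 to 8), or with the solvent DMSO (4 libraries, replicates 1 to 4). The available labels state neither strain, age and genotype of the mice nor whether each library is its own animal or culture. The p-values therefore rest on library-to-library spread alone, and that spread may be technical.

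LXRα (Nr1h3) and LXRβ (Nr1h2) are nuclear receptors that bind DNA as a dimer with an RXR and respond to oxysterols, which are oxidised derivatives of cholesterol. Without ligand the dimer can hold a corepressor complex at its target genes, and ligand binding exchanges it for coactivators, which turns on genes for the efflux of cholesterol and the making of fatty acids. LXRβ is known to be expressed in most tissues, whereas LXRα is known for its expression in liver, gut, fat and macrophages. In lymphocytes LXRβ is regarded as the main form.

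The libraries held between 16196217 and 28287445 counts, and between 9772 and 10990 genes had at least 1 count. DMSO replicates 1, 2 and 3 lay lowest in detected genes (9772 to 10194), below the range of 10442 to 10990 seen elsewhere. The zeros among genes of low level were as many as 182139 to 342244 independent molecules per library would give, and 1 such apparent molecule corresponded to 2.92 to 5.49 CPM (counts scaled to a common library total). Here too DMSO replicates 1, 2 and 3 were lowest, at 182139 to 211369 molecules. DMSO replicate 4 had 316703 and the RGX-104 libraries had 249525 to 342244, so the molecules sampled were partly tied to treatment. Of 14 genes of CD8 T cell identity, 12 were tested, 8 above 0 and 4 below 0 in log2 fold change, and none was called. Cd8a stood at 674 ± 41.6 CPM in DMSO against 737 ± 22.6 CPM with RGX-104 (mean ± SD, n = 4 each). Of the 12, Lat (0.39) and Cd5 (-0.63), named after their values were seen, had an unadjusted edgeR p under 0.05. Over all genes tested 3.81% had such a p. The untested genes of this list, Cd2 and Cd28, had no count in any library. Summed markers of B cells lay between 43.8 and 217 CPM in DMSO and between 110 and 187 CPM in RGX-104. Those of dendritic cells, CD4 and regulatory T cells, NK cells and neutrophils were each at most 35.7 CPM in any library. Erythroid markers were at most 53.9 CPM and stromal markers at most 125 CPM, of which Pecam1 made up nearly all; the 6 other stromal markers were each at most 9.32 CPM. In bulk RNA, fewer cells of a type and less RNA per cell cannot be told apart.

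The 4 LXR targets examined were higher with the agonist, and no transcript of the receptors or coregulators was called. Abca1 and Abcg1, which export cholesterol from the cell, had log2 fold changes (RGX-104 over DMSO) of 5.68 ± 0.65 and 3.36 ± 0.29 (SE; edgeR quasi-likelihood test, adjusted p = 8.64e-05 and 2.56e-06), with 1 DMSO library at 0 for Abca1. Srebf1, a transcription factor of fatty acid synthesis, and Mylip, a ubiquitin ligase that acts on the LDL receptor, rose by 2.39 ± 0.16 and 1.66 ± 0.18 (edgeR adjusted p = 3.45e-08 and 3.41e-05). With robust dispersion estimates Abca1 was no longer called (edgeR adjusted p = 0.757). Its log2 fold change was 6.31 without DMSO replicate 3 and 7.32 with limma-voom. These genes are known LXR targets and were chosen with earlier results of these data known, so their calls are no independent test. They are given here only as the readout against which the receptor transcripts are set.

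Of the 9 receptor and coregulator genes, 6 passed the filter on low counts and were tested, and 0 of these 6 were called (edgeR, adjusted p under 0.05). At an unadjusted p under 0.05 there were also 0 of 6. Limma-voom called 0 of 6, and DESeq2 called 0 of the 7 to which it gave a p-value, with Nr1h3 included. DESeq2 gave a p-value to 12405 genes but an adjusted p to 10975, so Nr1h3 may have had no adjusted p. Over all 10037 genes tested 0.110% were called by edgeR, 0.0996% as higher and 0.00996% as lower. DESeq2 called 0.419% of the 10975 genes to which it gave an adjusted p. The count of 0 of 6 is near this background. Groups that did not overlap in CPM were found for 3.58% of all genes tested and for none of the 6. A missed threshold does not show that a transcript was unchanged, and the intervals below give the changes that the data allow.

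**Figure D1:**
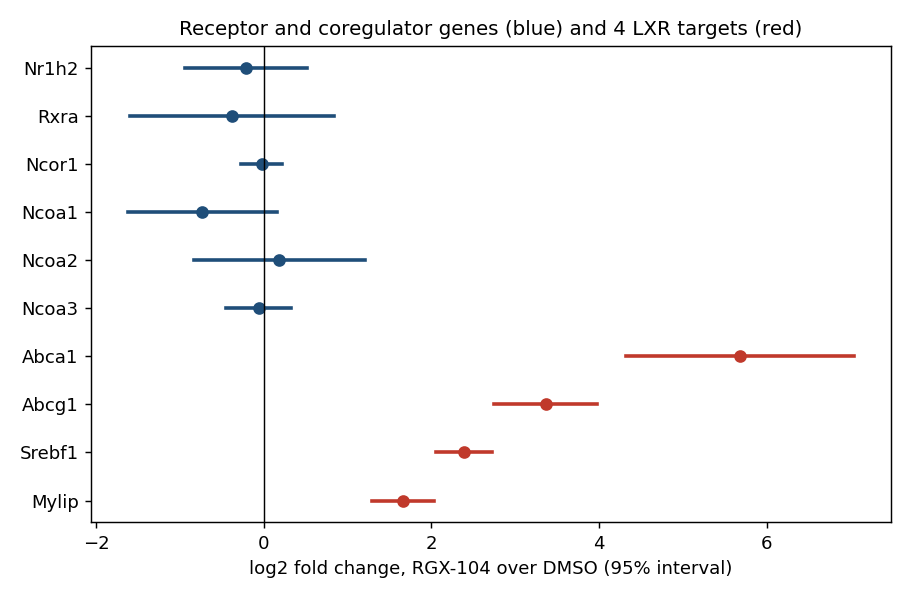
Log2 fold change of RGX-104 over DMSO for the 6 tested receptor and coregulator genes (blue) and 4 LXR targets (red), with the 95% interval as a line (edgeR, n = 4 and 4). All 6 blue intervals include 0, from the narrowest for Ncor1 (-0.27 to 0.22) to the widest for Rxra (-1.59 to 0.83), and the 4 red intervals lie above 1.29.

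The LXR transcripts were almost all Nr1h2. Nr1h2 had 611, 1257, 1263 and 759 counts in DMSO replicates 1 to 4, which are 31.8, 67.8, 51.6 and 47.8 CPM, and 879, 956, 970 and 627 counts in RGX-104 replicates 5 to 8, which are 31.1, 44.7, 59.6 and 37.2 CPM. The lowest library of each group, replicate 1 and replicate 5, had nearly the same value, and the groups overlap over nearly their whole range. The means were 49.7 ± 14.8 and 43.1 ± 12.3 CPM (SD, n = 4 each). The log2 fold change was -0.21 ± 0.35 (SE, edgeR adjusted p = 1.00), with a 95% interval from -0.93 to 0.52, or 0.523-fold to 1.44-fold. Without DMSO replicate 2 it was -0.03, and without RGX-104 replicate 7 it was -0.40.

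Nr1h3, the other LXR gene, had counts in 3 of 8 libraries: 93 in DMSO replicate 1, 113 in DMSO replicate 4 and 29 in RGX-104 replicate 5, which are 4.84, 7.12 and 1.02 CPM. The other 5 libraries had 0. The values of DMSO replicates 1 and 4 correspond to between 0.97 and 2.25 apparent molecules, and RGX-104 replicate 5 to 0.256 of one, so they are at the limit of detection, and the gene did not pass the filter and was not tested. Nr1h3 is strongly expressed in macrophages. Summed CPM of 15 macrophage markers lay between 11.3 and 31.0 in DMSO and between 8.05 and 30.6 in RGX-104, and 6 of the markers, among them Mertk, Fcgr1 and C1qa, were at 0 in every library. The 3 libraries with Nr1h3 counts had the 3 lowest macrophage sums, 11.3, 17.3 and 8.05 CPM, and the part of such cells in the Nr1h3 counts was not tested.

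Of the LXR counts, Nr1h2 took 96.3% ± 5.91 (SD over 8 libraries), with a range of 86.8% to 100% in DMSO and of 96.8% to 100% in RGX-104. The summed LXR level had a mean of 52.7 CPM in DMSO (range 36.6 to 67.8) against 43.4 CPM with RGX-104 (range 32.1 to 59.6).

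The promoters of the paired LXR genes are shown because their transcripts differed in level in all 8 libraries. Each run is the 250 bases before an annotated start, from RefSeq on GRCm38.p6, written 5' to 3' on the strand of the gene, with CpG dinucleotides in capitals. Promoter entries were found for 7 of the 9 genes, and there was none for Ncoa2 and Ncoa3. The Nr1h2 run is chr7:44553966-44554215 on the minus strand and the Nr1h3 run is chr2:91195117-91195366 on the minus strand. Nr1h3 has another, overlapping window that is not printed, with 8 CpG and 63.6% G and C, and both of its windows lie inside the span of the gene.
Nr1h2: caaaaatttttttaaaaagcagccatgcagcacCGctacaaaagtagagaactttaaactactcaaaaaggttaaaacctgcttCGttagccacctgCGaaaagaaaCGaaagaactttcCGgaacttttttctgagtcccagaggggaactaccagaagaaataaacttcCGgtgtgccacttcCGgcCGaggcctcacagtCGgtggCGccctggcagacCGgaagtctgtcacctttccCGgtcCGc
Nr1h3: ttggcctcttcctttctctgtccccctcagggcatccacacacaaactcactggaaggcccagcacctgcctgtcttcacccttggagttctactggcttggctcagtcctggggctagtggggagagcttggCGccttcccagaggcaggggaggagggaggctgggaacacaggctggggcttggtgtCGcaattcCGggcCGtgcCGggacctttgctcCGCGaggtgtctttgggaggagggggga
The Nr1h2 run holds 13 CpG and 48.4% G and C, and the Nr1h3 run holds 7 CpG and 63.2%. The CpG count of Nr1h2 is above that of 68.5% of all 32851 promoter windows in the table, and that of Nr1h3 is above 53.7%. The LXR and RXR hexamer AGGTCA, searched on both strands, is in neither.

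Of the RXR genes, only Rxra had counts. Rxra encodes RXRα, which pairs with LXR and with receptors of retinoic acid, vitamin D and thyroid hormone. It stood at 46.2, 34.5, 15.7 and 13.8 CPM in DMSO replicates 1 to 4 and at 36.0, 22.9, 6.95 and 18.9 CPM in RGX-104 replicates 5 to 8. Its highest library was 6.65 times its lowest, the widest such range among the 6 tested genes, and the groups overlap. The log2 fold change was -0.38 ± 0.58 (SE, edgeR adjusted p = 1.00), with a 95% interval from -1.59 to 0.83. It was -0.01 without DMSO replicate 1, -0.09 without RGX-104 replicate 7, and turned to 0.44 with the detected gene number as a covariate. The ratio of Rxra to Nr1h2 in CPM ran from 0.289 to 1.45 in DMSO and from 0.116 to 1.16 in RGX-104.

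Rxra has a second annotated start inside the gene, and its window is shown because it holds the hexamer AGGTCA more than once, in capitals (TGACCT is the same motif on the other strand). The run is chr2:27709042-27709291, plus strand, 5' to 3'.
Rxra, second start: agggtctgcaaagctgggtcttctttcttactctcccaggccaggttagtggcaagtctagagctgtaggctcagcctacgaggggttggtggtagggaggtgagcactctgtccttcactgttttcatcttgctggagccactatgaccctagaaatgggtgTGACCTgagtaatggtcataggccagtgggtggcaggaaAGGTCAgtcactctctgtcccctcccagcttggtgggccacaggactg
Counted from the first base, TGACCT begins at 164 and AGGTCA at 203. Of all 32851 windows of this length 14.0% hold the hexamer on either strand and 1.36% hold it more than once. The Rxra window was picked for its motif from the 12 windows searched, so 1.36% does not measure how rare such a find is. The other window of Rxra has none, and of the windows of the other 6 genes only 1, of Rxrg, has it. A direct repeat of AGGTCA with 4 bases between the copies was in 5 of all windows and in none of these genes. A match is a description of letters, not of a bound site, and counts at the 3' end cannot tell from which start Rxra was transcribed.

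Rxrb, which encodes RXRβ, is listed at 0 in all 8 libraries, and this 0 cannot be read as absence of the transcript. Rxrb lies at chromosome 17, 34031812 to 34038403 (GRCm38.p6), within the major histocompatibility complex. Of the 85 consecutive protein-coding genes around it that did not enter the test, between Rab11b and Gpank1, 83 had no count in any library and the others at most 2 counts in a library. This run spans 1.35 Mb. It holds genes that nearly every cell uses: Rps18, a ribosomal protein, and Brd2, a chromatin reader, had 0 counts, as had Tap1 and Psmb9 of antigen presentation, and the class I gene H2-K1 had 4 counts over all 8 libraries. By comparison, the median of 80 ribosomal protein genes was 1821 CPM. Beyond Gpank1 (4.92 CPM), protein-coding genes up to Sfta2 again had at most 2 counts over all 8 libraries, apart from H2-Q4 (174 CPM). Why the run and the genes beyond it have so few counts was not tested.

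**Figure D2:**
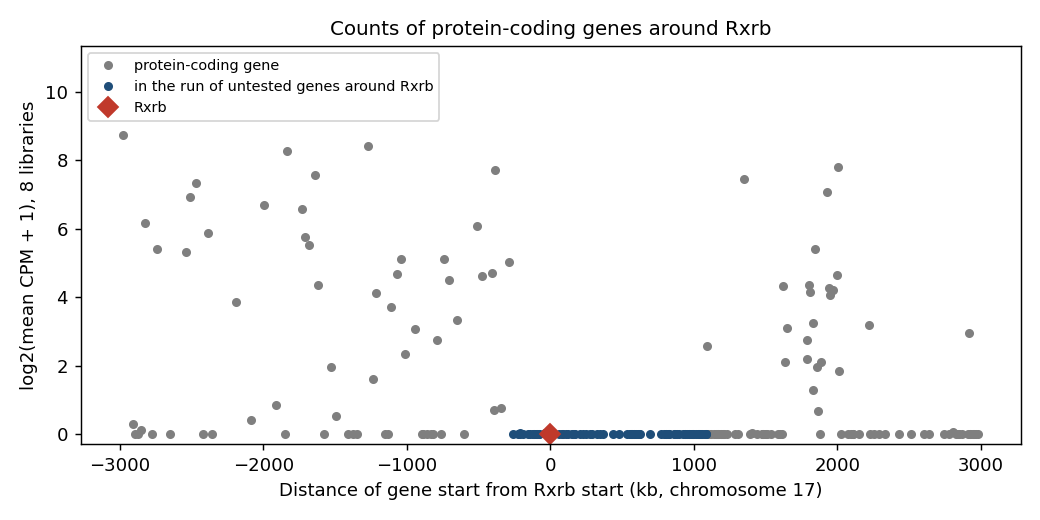
Mean level over 8 libraries, as log2(CPM + 1), of protein-coding genes around Rxrb, against the distance of their starts from its start in kb on chromosome 17. The 85 genes of the run (blue, with Rxrb in red) all lie at or near 0. Grey genes with counts lie on either side of the run. To its right, the grey genes beyond Gpank1 up to Sfta2 also lie at or near 0, apart from H2-Q4.

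Rxrg, which encodes RXRγ, a form known from muscle and brain, was also at 0 in all 8 libraries. A count of 0 over a group leaves room for 3 counts, or 0.0384 CPM in DMSO; with RGX-104 the limit was 0.0362 CPM. These limits cover counting error only. Since 1 apparent molecule corresponds to at least 2.92 CPM, transcripts well above those limits could have been missed. Of its 10 nearest protein-coding genes 6 had counts, whereas around Rxrb 1 of 10 had any. Neighbours with counts do not show that a 0 is absence of the transcript. Cd2 and Cd28, of the CD8 T cell identity list and outside the run around Rxrb, also had no count in any library. The RXR level that can be read from these libraries is thus that of Rxra alone, 27.6 ± 15.6 CPM in DMSO against 21.2 ± 11.96 CPM with RGX-104.

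Ncor1, the corepressor that brings histone deacetylase 3 to unliganded receptors, was the most abundant gene of the set. It stood at 641, 642, 580 and 501 CPM in DMSO replicates 1 to 4 and at 542, 586, 575 and 620 CPM in RGX-104 replicates 5 to 8. All 4 RGX-104 libraries lie within the DMSO range. Its mean of 586 CPM is above that of 98.2% of the genes tested. The log2 fold change was -0.02 ± 0.12 (SE, edgeR adjusted p = 1.00), with a 95% interval from -0.27 to 0.22, or 0.828-fold to 1.17-fold, the narrowest of the set. On GRCm38 the 3' end of Ncor1 lies inside Ttc19, a gene of the opposite strand, over a shared span of 12026 bases. Ttc19 was at 96.2 ± 27.0 CPM in DMSO against 108 ± 37.7 CPM with RGX-104, a log2 difference of 0.17 (adjusted p = 1.00, edgeR). The strand setting of the counting is not known. Whether reads of the shared span were given to the right gene of this pair, or left out, is therefore not known. The level of Ncor1 carries this limit wherever it is used here. Pigl, which overlaps the start of Ncor1 by 82 bases, was at 12.9 ± 11.8 and 12.7 ± 8.57 CPM. The small RNA genes Gm23390 and Gm23169, within Nr1h3 and Ncoa2, had no count in any library.

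The coactivators Ncoa1, Ncoa2 and Ncoa3 (SRC-1, SRC-2 and SRC-3) bind liganded nuclear receptors and recruit histone acetyltransferases. Ncoa3 led with 136, 153, 157 and 224 CPM in DMSO replicates 1 to 4 and 161, 175, 164 and 145 CPM in RGX-104 replicates 5 to 8. DMSO replicate 4 stands above all other libraries, and the RGX-104 values lie within the DMSO range. The log2 fold change was -0.06 ± 0.18 (SE, edgeR adjusted p = 1.00; 95% interval -0.44 to 0.33), and it turned to 0.11 without DMSO replicate 4. The last bases of Ncoa3 overlap Sulf2 by 154 bases on the opposite strand, and Sulf2 had no count in any library.

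Ncoa1 had the largest difference between group means among the 6 tested genes, and it rested on 1 library. It stood at 43.1, 32.4, 97.1 and 29.99 CPM in DMSO replicates 1 to 4 and at 17.8, 37.7, 33.6 and 33.2 CPM in RGX-104 replicates 5 to 8. DMSO replicate 3 was more than 2 times any other library, and RGX-104 replicate 5 was the lowest. The log2 fold change was -0.73 ± 0.43 (SE, edgeR adjusted p = 1.00, unadjusted p = 0.103; 95% interval -1.62 to 0.16). It moved to -0.21 without DMSO replicate 3.

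Ncoa2 stood at 39.4, 47.9, 9.20 and 28.9 CPM in DMSO replicates 1 to 4 and at 20.7, 56.0, 32.6 and 33.6 CPM in RGX-104 replicates 5 to 8. DMSO replicate 3 had the lowest value of Ncoa2 and the highest of Ncoa1. The log2 fold change of Ncoa2 was 0.19 ± 0.49 (SE, edgeR adjusted p = 1.00; 95% interval -0.83 to 1.21). It turned to -0.12 without DMSO replicate 3 and likewise without RGX-104 replicate 6. The 3 coactivators summed to 250 ± 29.4 CPM in DMSO against 227 ± 30.6 CPM with RGX-104, of which Ncoa3 took 66.7% ± 8.70 and 71.4% ± 6.67. The ratio of Ncor1 to this sum was 2.42 ± 0.53 and 2.59 ± 0.32 (SD, n = 4 each), with overlap between the groups.

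**Figure D3:**
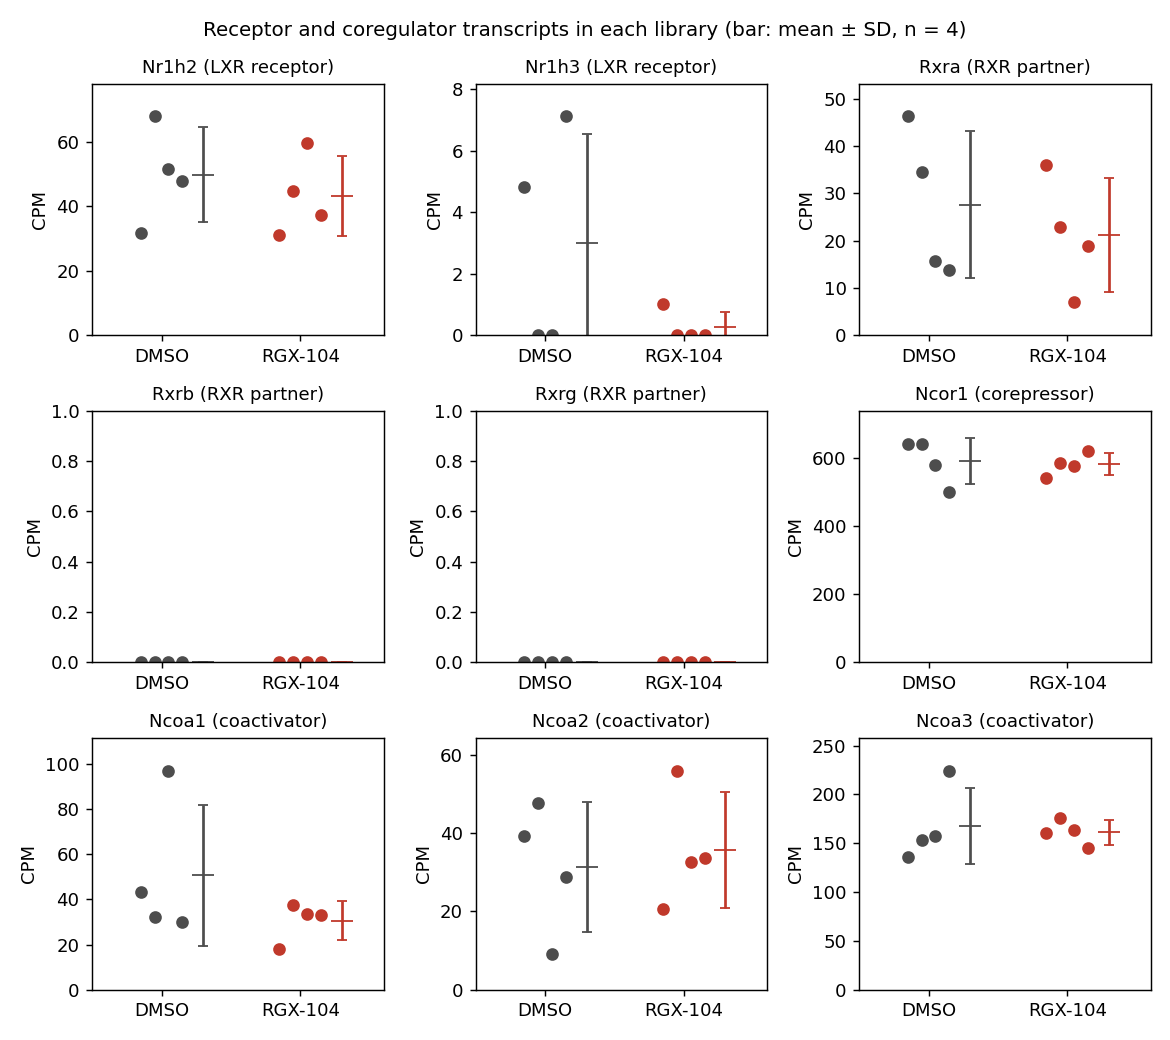
CPM of each of the 9 genes in each library, with DMSO in grey and RGX-104 in red, replicates in number order from left to right, and a bar for the mean ± SD (n = 4). Groups overlap in every panel with counts, Nr1h3 is above 0 in 3 libraries, and Rxrb and Rxrg are at 0 in all 8.

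The order of mean levels over the 8 libraries was Ncor1 (586 CPM), Ncoa3 (164 CPM), Nr1h2 (46.4 CPM), Ncoa1 (40.6 CPM), Ncoa2 (33.5 CPM), Rxra (24.4 CPM) and Nr1h3 (1.62 CPM). In 3' end libraries a transcript gives reads at its end whatever its length, so CPM is compared between genes without division by length. Priming and the annotated end can still differ between genes. Ncor1 exceeded Ncoa3 in 8 of 8 libraries, by 1.84 ± 0.33 in log2(CPM + 1) (mean ± SD of the paired difference). Ncoa3 exceeded Nr1h2 in 8 of 8 libraries by 1.83 ± 0.40, and Rxra exceeded Nr1h3 in 8 of 8 by 3.65 ± 1.34. The neighbours between them did not differ beyond their spread: Nr1h2 was above Ncoa1 in 6 of 8 libraries (0.29 ± 0.67), Ncoa1 above Ncoa2 in 4 of 8 (0.27 ± 1.24), and Ncoa2 above Rxra in 5 of 8 (0.49 ± 1.00). Among the tested genes, Nr1h2 was above 62.4% and Rxra above 43.9% by mean level.

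The spread of the 6 tested genes between libraries was between 0.542 and 2.06 times what sampling of the apparent molecules would give. On average over the libraries Nr1h2 corresponded to 12.1 apparent molecules, Ncoa1 to 10.2, Ncoa2 to 8.85, Rxra to 5.94, Ncoa3 to 43.9 and Ncor1 to 153. For Nr1h2 the SD between libraries was 0.977 times the one expected from sampling those molecules in DMSO and 1.02 times in RGX-104. The ratio for Rxra was 1.38 and 1.41. It was largest for Ncoa1 in DMSO, at 2.06, and smallest for Ncoa3 in RGX-104, at 0.542. With 4 libraries each such SD is itself imprecise.

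**Figure D4:**
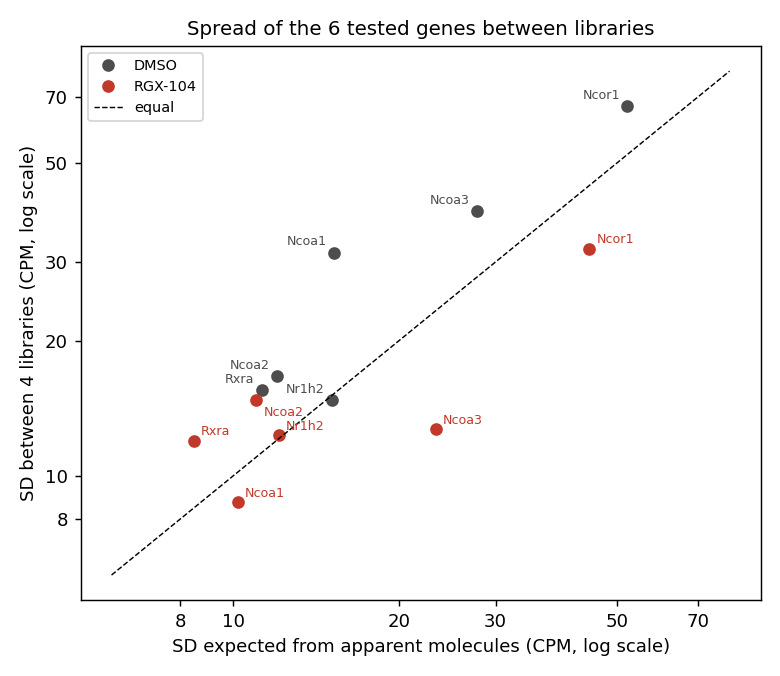
SD between the 4 libraries of a group against the SD expected from Poisson sampling of apparent molecules, both in CPM on log scales, for the 6 tested genes in DMSO (grey) and RGX-104 (red), with a dashed line where they are equal. Nr1h2 lies on the line in both groups, and Ncoa1 in DMSO lies farthest above it, at 2.06 times.

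For the genes above 50 CPM, the genes of most similar profile over the 8 libraries were found by the root mean square difference of log2(CPM + 1) after centring each gene on its own mean. For Ncor1 these were Gigyf1 (0.054) and Traf3 (0.066), against a median of 0.32 over 3549 genes. For Ncoa3 they were Ddx3x (0.060) and Tomm6 (0.086), against a median of 0.36. None of these 4 neighbours had a log2 fold change beyond 0.04 in size. This follows from their choice, because genes matched over the same 8 libraries must have similar fold changes. That their distances lie below the median likewise follows from taking the nearest genes.

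Genes around the receptors were examined as 6 lists: further corepressor and coactivator genes, other RXR partners, other nuclear receptors, enzymes that make or remove sterol ligands, and genes of retinoid handling. In all 60 of their genes were tested beside those described above, and 0 were called by edgeR and 0 by limma-voom. DESeq2 gave a p-value to 64 genes of the lists and called 0, though some of these may have had no adjusted p. At an unadjusted edgeR p under 0.05 there were 3, and over all tested genes that share was 3.81%.

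Of 15 further corepressor genes 13 were tested, 6 above 0 and 7 below 0 in log2 fold change, with a median of -0.01, beside 0.01 over all genes tested. The most abundant were Ctbp1, a corepressor that binds NADH, at 118 ± 49.6 CPM in DMSO against 166 ± 28.3 CPM with RGX-104, and Rcor1, a scaffold of the CoREST complex, at 123 ± 30.2 and 146 ± 28.3 CPM. Sin3b and Lcor followed at 107 ± 42.0 and 117 ± 51.5 CPM in DMSO and at 125 ± 22.6 and 107 ± 28.6 CPM in RGX-104. None of these passed the test. Ctbp2, named after its values were seen, was the 1 gene of this list without a count, which does not show absence of its transcript.

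Of 22 further coactivator genes 20 were tested, 11 above 0 and 9 below, with a median log2 fold change of 0.08. Crebbp, a histone acetyltransferase that nuclear receptors share, was at 326 ± 45.3 CPM in DMSO against 341 ± 39.8 CPM with RGX-104. The histone methyltransferases Kmt2d and Kmt2c were at 224 ± 48.5 and 267 ± 69.3 CPM in DMSO and at 267 ± 46.0 and 210 ± 19.8 CPM in RGX-104. Prmt1, an arginine methyltransferase, was at 224 ± 18.2 and 264 ± 23.2 CPM. Ep300 and Ppargc1b, named after their values were seen, had unadjusted p of 0.0481 and 0.0437 in the edgeR test across all genes and log2 fold changes of 0.52 and 0.65, and neither passed after adjustment (adjusted p = 1.00).

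Among the other RXR partners 5 of 15 were tested and 7 had no count in any library. Thra, the thyroid hormone receptor α, was at 112 ± 23.2 CPM in DMSO against 110 ± 12.8 CPM with RGX-104. The retinoic acid receptors Rarg and Rara were at 87.1 ± 8.81 and 38.8 ± 10.2 CPM in DMSO and at 99.7 ± 10.1 and 49.9 ± 15.7 CPM in RGX-104. Nr4a1, an immediate early gene of T cell receptor signalling, was at 11.5 ± 10.9 and 11.1 ± 11.5 CPM. The median log2 fold change was 0.20.

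Of 28 other nuclear receptors 12 were tested and 13 had no count, with 6 of the tested above 0, 6 below and a median of -0.09. Nr2c2, an orphan receptor, was at 204 ± 39.4 CPM in DMSO against 224 ± 26.7 CPM with RGX-104. Nr3c1, the glucocorticoid receptor, was at 111 ± 25.4 and 94.0 ± 6.65 CPM, and Rora at 41.3 ± 20.2 and 31.5 ± 14.98 CPM. None passed the test.

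Of 16 genes listed for sterol ligands 7 were tested, and 6 had no count in any library. The log2 fold change of all 7 was above 0 (median 0.59), but it ran from 0.058 to 1.25. Among them only Soat1 had an interval that excluded 0. Over all genes tested, 5104 of 10037 were above 0. The shared sign therefore does not show that each gene of the list rose. Soat1, which esterifies cholesterol for storage, was at 32.3 ± 9.28 CPM in DMSO against 62.9 ± 17.7 CPM with RGX-104 (log2 fold change 0.96 ± 0.35, unadjusted p = 0.0121 in the edgeR test across all genes, adjusted p = 1.00). Ebp, an enzyme of cholesterol synthesis, was at 49.1 ± 15.6 and 52.4 ± 8.00 CPM. Acat1, a mitochondrial thiolase that is no sterol enzyme despite its place in the list, was at 59.3 ± 25.5 and 64.8 ± 12.98 CPM. Without RGX-104 replicate 7 the median of the list fell to 0.13. With the detected gene number as a covariate it was 0.42.

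Of 14 genes of retinoid handling 3 were tested, and 7 had no count. Each of the 3 had a log2 fold change below 0, with an interval that included 0. Rdh11, a retinol dehydrogenase, was at 51.2 ± 30.4 CPM in DMSO against 29.2 ± 14.5 CPM with RGX-104. Fabp5, a carrier of fatty acids and retinoic acid, was at 13.5 ± 10.3 and 8.05 ± 6.66 CPM, and Rdh10 at 9.74 ± 4.46 and 3.93 ± 2.57 CPM. None passed the test.

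**Figure D5:**
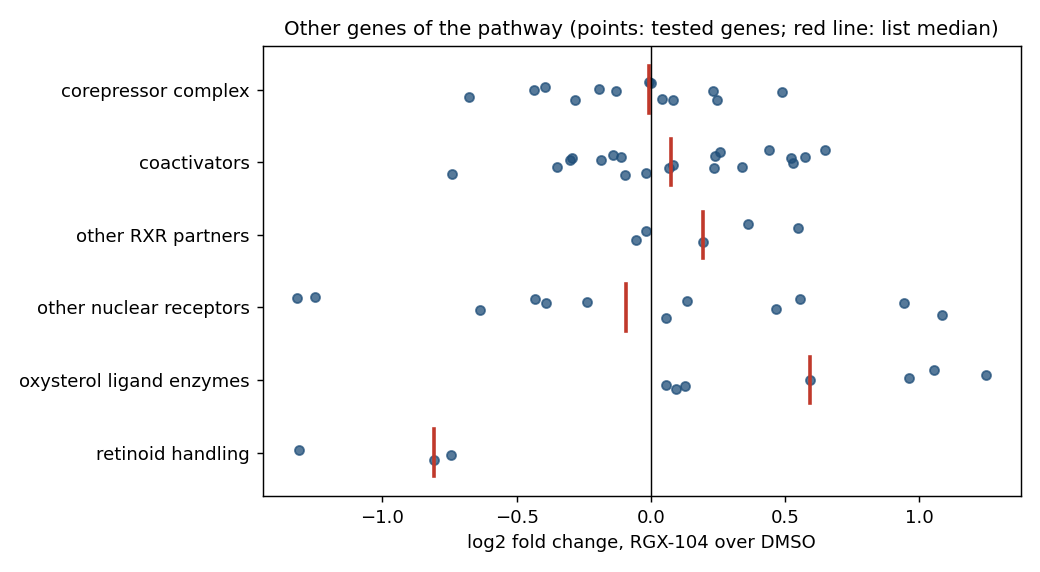
Log2 fold change of RGX-104 over DMSO for the 60 tested genes of the 6 lists (points) with the list median as a red line, from -0.81 for retinoid handling (3 genes) to 0.59 for sterol ligand enzymes (7 genes). Points are spread vertically only to keep them apart, and none of them was called.

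On GRCm38.p6 the 9 genes, all annotated as protein-coding, lie at chromosome 7, 44549616 to 44553968 (Nr1h2), chromosome 2, 91184061 to 91202829 (Nr1h3), chromosome 2, 27676445 to 27763319 (Rxra), chromosome 17, 34031812 to 34038403 (Rxrb), and chromosome 1, 167598362 to 167639623 (Rxrg). Ncor1 lies at chromosome 11, 62315663 to 62457414, Ncoa1 at chromosome 12, 4247362 to 4477206, Ncoa2 at chromosome 1, 13139105 to 13374227, and Ncoa3 at chromosome 2, 165992637 to 166073242.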

How the data were processed

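The deposited values are raw read counts per gene symbol, 1 column per library, per the file headers and the values. Libraries were made with a QuantSeq 3' kit, per the labels' protocols. The submitters' processing notes list the names STAR 2.7.8a, R 4.1.0, DESeq2 1.4 and the build GRCm38, with no role for any. For the counting tool, annotation, strand setting and molecular identifiers, the sources available gave nothing.

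The main test was the edgeR 4.0.16 quasi-likelihood test in R 4.3.3, with TMM factors, treatment as the only term, filterByExpr with a minimum count of 10 (10037 genes), Benjamini-Hochberg adjustment over all genes tested and a threshold of 0.05. The procedure was tested on simulated data with the same dispersion for all genes and no limit on molecules. That run does not show its power for genes of low level such as Rxra. SE was taken as |log2 fold change| over the root of F, and the 95% interval uses it with the total degrees of freedom. CPM uses TMM-scaled library sizes. Apparent molecules per library were estimated from the zeros among genes of 2 to 20 CPM in the other libraries, assuming Poisson draws. Library numbers are unique across groups and the labels give no pairing, so no block was fitted. Alternatives were DESeq2 1.42.0, limma-voom 3.58.1, other scalings, filters and dispersion, a covariate, and left-out libraries.

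The 9 genes were taken by symbol, but they and the lists were chosen with earlier results of these data known. Named were all 9 genes, of each list the called genes and up to 4 tested genes of highest mean CPM, 4 LXR targets, overlapping genes, and for genes of at least 50 CPM the 2 nearest profiles. Of the genes this rule names, 2 are not reported here. Coordinates and promoters are from RefSeq (GRCm38.p6), and gene overlaps from GENCODE on GRCm38.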

Additional observations from a re-analysis of the deposited data

Results flagged for a closer look

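In 30 groups of 4 libraries examined over the receptor and coregulator genes and their sums and ratios, 2 had a library far from the other 3. The limit used (Dixon's 95% critical value) flags by chance about 1 in 20 groups of normally spread values; a group with 3 values tied, as here, is not of that kind. For Nr1h3 it was RGX-104 replicate 5, with 1.02 CPM where the remaining libraries of the group had 0. The share of Nr1h2 among LXR counts, which follows from the same 29 counts, was 96.8% in that library and 100% in the others.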

How the results depend on the processing

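No call among the 6 tested receptor and coregulator genes or the 60 listed genes appeared under any of the 9 other settings or the 8 fits that left out a library. The number of listed genes tested ranged from 48 with a filter at a mean of 20 CPM to 75 without a filter. The count of all called genes was 11, and it moved to 46 with DESeq2 and to 7 with the detected gene number as a covariate, and ranged from 8 to 14 when a library was left out. Directions turned only in genes that were not called. With the covariate Rxra was at 0.44 and Ncor1 at 0.094 on the log2 scale. The cause was not tested. Against DMSO replicate 4 alone Rxra was at 0.63, Ncor1 at 0.22 and Ncoa1 at 0.034. That setting has 1 control library, which was the lowest DMSO library for all 3 genes, so these turns follow from its choice and say nothing about stability. With a library left out, log2 fold changes ranged from -0.40 to -0.03 for Nr1h2, -0.77 to -0.01 for Rxra, -0.10 to 0.014 for Ncor1, -0.92 to -0.21 for Ncoa1, -0.12 to 0.46 for Ncoa2 and -0.15 to 0.11 for Ncoa3. The individual turned values were 0.014 for Ncor1 without DMSO replicate 1, 0.012 without DMSO replicate 2 and 0.0020 without RGX-104 replicate 5, -0.12 for Ncoa2 without DMSO replicate 3 or RGX-104 replicate 6, and 0.11 for Ncoa3 without DMSO replicate 4. Against DMSO replicate 4 alone the list medians were -0.17 for corepressors, 1.09 for other RXR partners and 0.23 for other nuclear receptors, the last at 0.05 without a filter. The median of the sterol ligand list ranged from 0.35 to 0.71 over the other settings and from 0.13 to 0.82 when a library was left out. Plain CPM or DESeq2 size factors left the summed level of the 9 genes at 894 to 897 CPM. No paired analysis was made because the labels give no pairing of libraries across groups, and whether any were paired is not known. Apparent molecules, 5.94 to 12.1 per library for Rxra, Ncoa2, Ncoa1 and Nr1h2, limit what can be seen of moderate changes.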

Other observations

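Zeros in every library were common and not limited to the surroundings of Rxrb. Of 21887 protein-coding genes matched to RefSeq, 10194 (46.6%) had no count in any library. This share takes in genes whether or not T cells use them, so it is no rate for genes that nearly every cell uses. The 80 ribosomal protein genes were taken by a name pattern that also admits paralogs. Of these, 5 had no count, and 1 of the 5, Rps18, lies in the run around Rxrb. Rps28, in the same run, had 4 counts in all. Among runs of consecutive protein-coding genes that were not tested, the one around Rxrb ranked 4 by number of genes. The longer runs, of 256, 229 and 106 genes, lay on chromosomes Y, 2 and 7. Whether T cells use the genes of those runs was not examined.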
